A study of Mus musculus with 59 samples.

Results

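Aif1, Cx3cr1, Csf1r, P2ry12, Tmem119, Trem2, C1qa, C1qb, C1qc and Cd68 are genes by which microglia, the resident macrophages of the brain, are recognised, and their levels were followed through brain development, brain regions and prenatal drug exposure in the mouse. They were found by gene symbol on Affymetrix Mouse 430 2.0 arrays, as the probe sets that carry that symbol alone. All 10 genes were present, among 18194 genes with a symbol of their own, and together they held 16 of 34958 such probe sets. Csf1r and C1qb had 3 probe sets each, and Cx3cr1 and Trem2 had 2 each. The probe set with the highest mean signal stood for its gene.

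The study gave pregnant C57BL/6 mice valproic acid (VPA, an anti-epileptic drug), valpromide (VPM, its amide) or 0.5% methylcellulose as vehicle (MC) by mouth, each drug at 300 mg/kg, once a day at E12.5, E13.5 and E14.5 (embryonic days). Total RNA of the offspring's brain was measured on 59 arrays in 19 groups. At E14.5 the telencephalon was taken 3 h after the last dose from MC, VPA and VPM embryos (3 arrays a group), and at E18.5 hippocampus and forebrain were taken in the same 3 treatments (3 arrays a group); the labels do not say whether the forebrain samples still held the hippocampus. Adult males of 12 to 13 weeks gave hippocampus and cortex after MC or VPA, each with or without a running wheel in the cage from weaning (RW, 3 arrays a group), and a separate set of adult males gave hippocampus at postnatal day 84 (P84) after MC or VPA (4 arrays a group). All these animals carry no named genetic change, and no VPM group was analysed in adults. The labels call the arrays of a group biological replicates but name no dams or litters and do not tie regions to animals, so the p-values measure the spread between these arrays, which may in part be technical.

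Microglia enter the brain as macrophage precursors from the yolk sac in early embryonic life, multiply there and keep maturing after birth. Their survival depends on the receptor Csf1r and its ligands Csf1 and Il34, and neurons signal to them through Cx3cl1, the ligand of Cx3cr1. P2ry12 and Tmem119 are known as genes of the mature, resting state, while C1qa, C1qb and C1qc encode the chains of C1q, which opens the classical complement cascade and tags synapses for removal. Trem2 is a lipid-sensing receptor that signals through Tyrobp, Aif1 encodes the actin-binding protein Iba1, and Cd68 encodes a lysosomal glycoprotein that rises in phagocytic cells. Macrophages at the borders of the brain (in the meninges, around vessels and in the choroid plexus) share several of these genes, Csf1r, C1q and Cd68 among them.

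The promoters of the genes were set side by side because their levels moved together over the 19 groups, which share the step from embryo to adult. Promoter entries of RefSeq (GRCm38.p6) were used for 7 of the 10 genes. C1qa and Tmem119 had no entry, and Csf1r was left out of the search, so its promoter was not tested. The 250 bases before the start of each entry used were searched on both strands for GAGGAA. It is the core of sites bound by the macrophage factor PU.1, the product of Spi1. The motif was found in 5 of 7, those of Aif1, C1qb, C1qc, Cd68 and Trem2, against 23.3% of 32851 promoters of the same length. It was not found in the windows of Cx3cr1 and P2ry12. C1qb, C1qc and C1qa are neighbours on chromosome 4, with 0 annotated genes between them. The C1qb window (chr4:136886201-136886450, minus strand) and the C1qc window (chr4:136892915-136893164, minus strand) are shown with the motif in capitals, as GAGGAA or as its reverse complement TTCCTC, and those of Cx3cr1 (chr9:120068297-120068546, minus strand) and P2ry12 (chr3:59262986-59263235, minus strand) without a match.
C1qb: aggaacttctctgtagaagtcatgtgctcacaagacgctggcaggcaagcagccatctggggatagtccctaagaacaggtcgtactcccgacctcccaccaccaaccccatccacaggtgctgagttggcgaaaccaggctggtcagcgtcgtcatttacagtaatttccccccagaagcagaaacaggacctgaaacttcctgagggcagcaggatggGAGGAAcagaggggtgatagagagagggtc
C1qc: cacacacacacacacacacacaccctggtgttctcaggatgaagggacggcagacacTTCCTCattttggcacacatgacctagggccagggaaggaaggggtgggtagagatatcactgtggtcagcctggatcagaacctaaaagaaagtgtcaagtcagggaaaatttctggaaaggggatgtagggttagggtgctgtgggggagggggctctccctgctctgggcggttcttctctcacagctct
Cx3cr1: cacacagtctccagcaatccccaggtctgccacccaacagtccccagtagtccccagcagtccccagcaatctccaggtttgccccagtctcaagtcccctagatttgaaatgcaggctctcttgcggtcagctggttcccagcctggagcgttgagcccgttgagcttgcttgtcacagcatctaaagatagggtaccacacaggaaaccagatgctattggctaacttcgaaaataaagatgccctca
P2ry12: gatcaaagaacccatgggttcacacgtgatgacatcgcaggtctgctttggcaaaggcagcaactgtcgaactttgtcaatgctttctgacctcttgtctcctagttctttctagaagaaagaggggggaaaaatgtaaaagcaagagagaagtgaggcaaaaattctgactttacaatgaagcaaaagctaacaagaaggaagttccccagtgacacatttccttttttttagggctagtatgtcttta
The match began 30 bases before the start in C1qb and 193 bases before it in C1qc; a match is a stretch of letters and says nothing on binding.

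Values are scaled signals: each array was brought to a 2% trimmed mean of 500, and differences are on the log2 scale with values under a floor of 32 set to 32. Before scaling, the trimmed mean ran from 197.6 to 419.4. Arrays of a group correlated at 0.972 to 0.994, and no pair of arrays was identical. Hippocampus identity genes summed to 9364 to 11708 in the adult hippocampus against 4235 to 5226 in adult cortex, and to 4742 to 7251 in the E18.5 hippocampus against 2488 to 3108 in E18.5 forebrain, so the region labels and these markers went together. In each E14.5 group, 0 of 5 measured forebrain identity genes lay under the floor. A gene counts as changed where the adjusted p of limma is under 0.05, adjusted over all genes that passed a filter on signal (at least 100 in as many arrays as the smallest group has).

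Not every gene was measurable in the embryo. Trem2 passed the filter in no comparison: its brighter probe set ranged from 1.88 to 76.2 over 27 embryonic arrays, of which 15 lay below 32, and 16 of 32 adult arrays lay below 32 as well, so no level of Trem2 is given. Aif1 ranged from 17.6 to 68.7 over the embryonic arrays and from 138.5 to 292 over the adult arrays, with no overlap. Aif1 was therefore tested only where adult arrays entered the fit, and its embryonic values, with 0 of 27 arrays at 100 and 3 below 32, lie too near the floor for a difference between embryonic groups to be given. The other 8 genes passed in every fit.

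**Figure D1:**
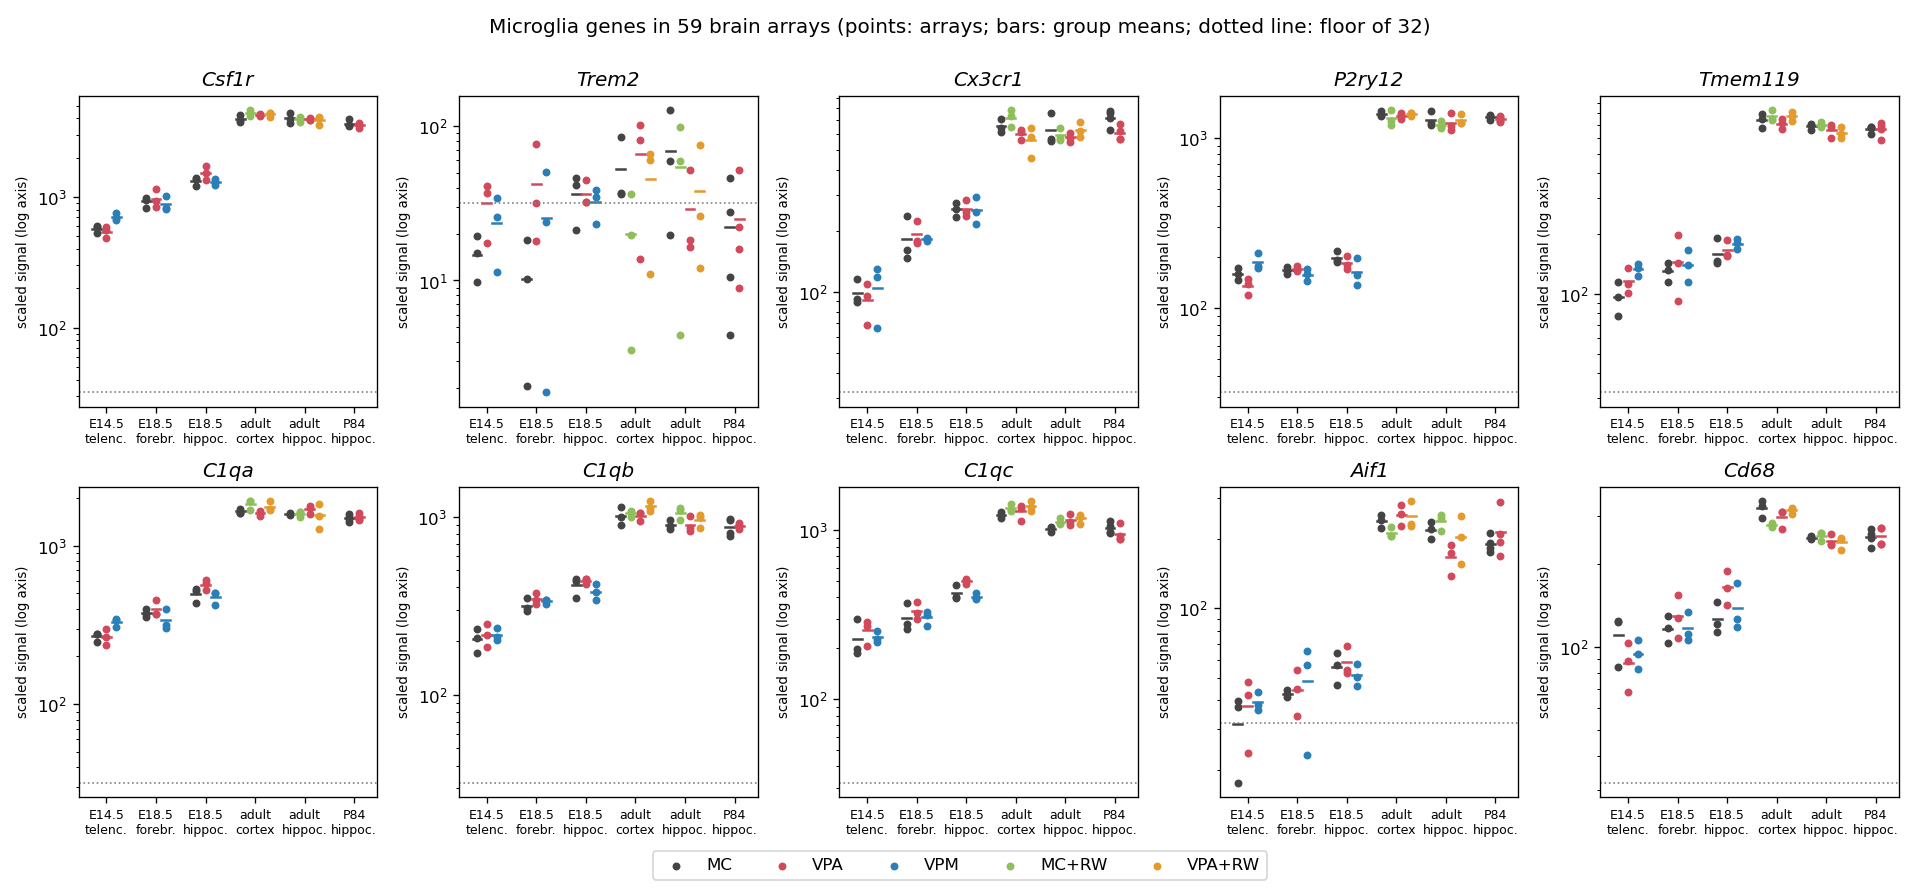
Scaled signal (log axis) of the 10 microglia genes in 59 arrays, by age and tissue; each point is an array, coloured by treatment, bars are group means and the dotted line is the floor of 32. Every gene but Trem2 stands higher in all adult arrays than in all embryonic arrays, and its treatments within an age and tissue differ less than embryo and adult do.

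The largest differences were those of age. From the E18.5 forebrain to the adult cortex of MC mice, 9 of 9 genes tested rose (44.8% of all genes rose), by 1.46 to 3.04 on the log2 scale, with a median of 2.10 against 0.14 for all genes. From the E14.5 telencephalon to the E18.5 forebrain 6 of 9 rose (30.2% of all genes rose), with a median of 0.44 against 0.05. Aif1 counts among these 9, as in the other counts of 9 at embryonic ages, only because its adult arrays passed the filter. The arrays of the stages did not overlap for 64% of all genes at the earlier step and 82.6% at the later one. In whole tissue, fewer cells of a type and less RNA per cell cannot be told apart. The dissected tissue also differed between these ages, so age and dissection cannot be told apart.

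Among the receptors, Csf1r read 599, 587 and 532 at E14.5, 830, 987 and 956 in the E18.5 forebrain and 3900, 3772 and 4241 in adult cortex of MC mice. These 3 stages did not overlap. The rise was 0.69 (adjusted p = 7.475e-07) before E18.5 and 2.10 (adjusted p = 2.076e-14) after it. The other 2 Csf1r probe sets gave 0.19 (adjusted p = 0.2063) and 0.18 (adjusted p = 0.122) for the first step, so the embryonic rise of Csf1r rests on 1 of 3 probe sets. Cx3cr1, the fractalkine receptor, read 92.5, 116 and 89.2 at E14.5, then 161, 236 and 147, then 712, 611 and 640. It also rose at both steps without overlap, by 0.85 (adjusted p = 0.0001958) and 1.88, and its other probe set gave 0.64 for the first step.

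P2ry12, the ADP receptor that steers microglial processes, did not pass at the first step. It read 158, 173 and 146 at E14.5, 165, 159 and 175 in the E18.5 forebrain, and 1332, 1430 and 1351 in adult cortex. The embryonic stages overlapped (0.07, 95% interval -0.12 to 0.26, adjusted p = 0.556), and the later rise of 3.04 (adjusted p = 4.712e-16) was the largest of the 9 genes. Of the whole log2 difference between E14.5 and the adult cortex, 2.23% lay before E18.5 for P2ry12, against 31.2% for Cx3cr1 and 24.7% for Csf1r. In VPA arrays these shares were 9.93%, 39.7% and 28.0%. The Csf1r share is that of the brightest of its 3 probe sets, and in MC arrays the others were not called before E18.5. For Cd68 the share was 6.06% in MC and 32.7% in VPA arrays, and the difference in course between genes was not tested. Tmem119, a surface protein of resident microglia, read 114, 76.9 and 96.7 at E14.5, 114, 131 and 143 at E18.5 and 679, 746 and 796 in adult cortex, with no gap between the embryonic stages. Its first step was 0.44 (adjusted p = 0.0117) and its second 2.52. The first call was lost without E14.5 MC array 2 (adjusted p = 0.0879), without E18.5 MC forebrain array 3 (adjusted p = 0.0597) and under quantile normalisation (adjusted p = 0.222).

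The 3 chains of C1q rose at both steps. C1qa read 248, 276 and 279, then 352, 398 and 371, then 1711, 1611 and 1597, with no overlap between stages. Its changes were 0.48 (adjusted p = 4.371e-05) and 2.14. C1qb read 234, 208 and 172, then 308, 294 and 347, then 898, 989 and 1137, again without overlap. It changed by 0.64 and 1.67, and its other probe sets gave 0.58 and 1.16 for the first step. C1qc read 188, 299 and 197, then 262, 370 and 280, then 1233, 1183 and 1283; the embryonic stages overlapped. Its first change of 0.43 (adjusted p = 0.01825) was lost without E14.5 MC array 1 (adjusted p = 0.107), E14.5 MC array 3 (adjusted p = 0.0887) or E18.5 MC forebrain array 2 (adjusted p = 0.13), and under quantile normalisation (adjusted p = 0.0959), and its second was 2.04.

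Cd68 and Aif1 encode intracellular proteins. Cd68 read 124, 123 and 84.1 at E14.5, 103, 117 and 129 in the E18.5 forebrain and 295, 324 and 340 in adult cortex. Its embryonic stages overlapped (0.09, interval -0.23 to 0.42), and its later rise of 1.46 was the smallest of the 9. Aif1 read 39.7, 37.5 and 17.6, then 42.6, 44.3 and 41.2, then 240, 222 and 254. Its later rise of 2.48 starts from values near the floor. From E14.5 to adult cortex the fold differences ran from 2.94 for Cd68 and 4.95 for C1qb to 7.8 for Tmem119 and 8.64 for P2ry12.

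**Figure D2:**
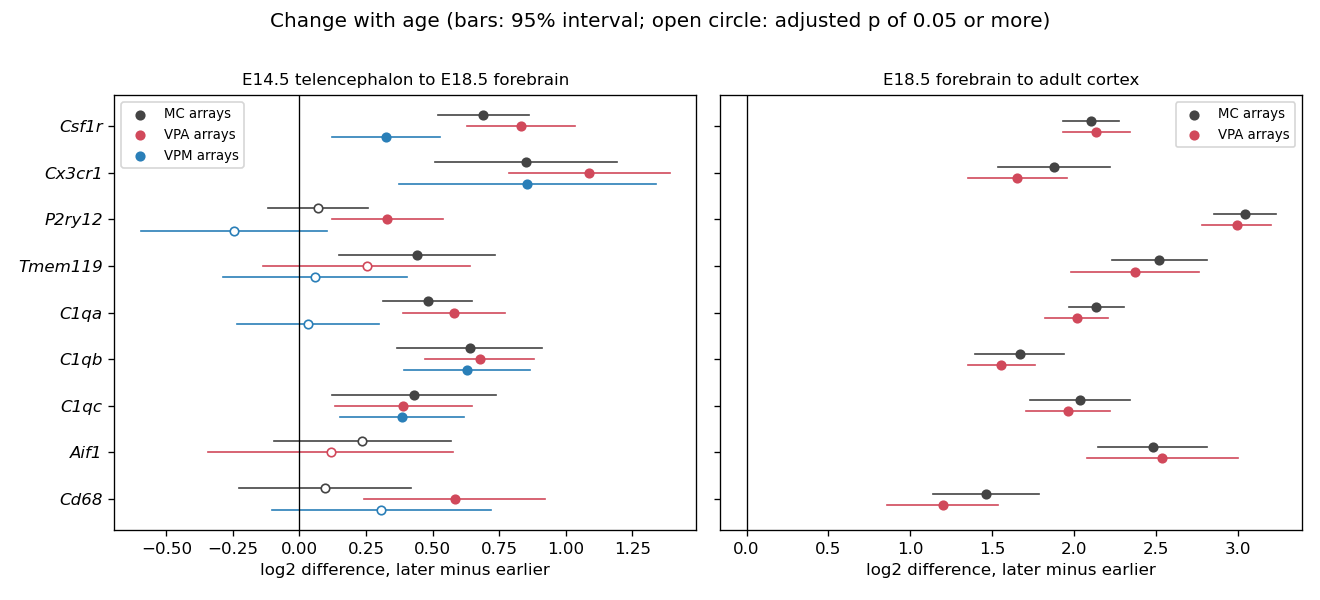
Log2 difference between ages for 9 microglia genes, E14.5 telencephalon to E18.5 forebrain on the left and E18.5 forebrain to adult cortex on the right, in MC, VPA and VPM arrays; bars are 95% intervals of the limma fit, and open circles mark an adjusted p of 0.05 or more. On the left, where Aif1 lies too near the floor to be read, the MC intervals of P2ry12 and Cd68 include 0 while Cx3cr1 (0.85) and Csf1r (0.69) of the MC arrays stand clear of it, and on the right all 9 lie above 1.

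The hippocampus gave another reading of the later step. In MC mice 9 of 9 genes rose to the adult hippocampus (44.6% of all genes rose), by 0.99 (Cd68) to 2.69 (P2ry12) with a median of 1.59, and 9 of 9 to the P84 hippocampus (45.2%), by 1.00 to 2.75. Between the P84 and the 12- to 13-week MC hippocampus 0 of 9 genes differed (9.84%), with 0 at an unadjusted p under 0.05 and intervals that reached -0.51 and 0.53.

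The same steps were read in the drug-exposed arrays. In VPA arrays 7 of 9 genes rose from E14.5 to the E18.5 forebrain (34.9% of all genes rose), Cx3cr1 by 1.09, Csf1r by 0.83 and, past the threshold here, P2ry12 by 0.33 (adjusted p = 0.007079) and Cd68 by 0.58 (adjusted p = 0.003769). Both of those calls were lost under quantile normalisation (adjusted p = 0.257 and 0.0736). The difference itself between VPA and MC arrays in this step was called for 0 of 8 genes (39.1%), with Cd68 nearest (0.49, adjusted p = 0.1851). In VPM arrays 4 of 8 rose (31%), Cx3cr1 by 0.86, C1qb by 0.63, C1qc by 0.39 and Csf1r by 0.32. From the E18.5 forebrain to adult cortex 9 of 9 rose in VPA arrays too (44.9% of all genes rose), as they did in the hippocampus to adult (42.8%) and to P84 (44.1%). Under quantile normalisation Cd68 was lost in both hippocampal steps of VPA arrays (0.26, adjusted p = 0.0985, and 0.25, adjusted p = 0.09).

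Genes that work with the 10 were read from fixed lists, to be set beside the 44.8% of all genes that rose. Of 6 measured ligands and signalling partners, 5 rose from the E18.5 forebrain to adult cortex in MC mice, among them Cx3cl1 (811 to 8590, 3.41), the Csf1r ligand Il34 (55.3 to 656, 3.57), the phospholipase gene Plcg2 (2.59) and the Trem2 adaptor Tyrobp (1.47). Of 8 complement genes 7 rose, among them the subunits of complement receptor 3, Itgam (2.46) and Itgb2 (2.39), and the regulator Cd59a (1.65). Of the 3 E18.5 arrays 1 lay below the floor for Itgam and 2 for Itgb2, so their sizes rest in part on the floor. Of 6 transcription factors 4 rose: Runx1 (at least 2.06, with all 3 E18.5 arrays below the floor), Irf8 (1.40), Irf5 (0.80) and Spi1 (0.80). Of 19 other microglia genes 18 rose and 1 fell, with Selplg (3.13), Siglech (2.95), Gpr34 (2.82) and Ctss (2.66) among the smallest p. The floor was also reached by 1 E18.5 array for Gpr34. All 4 class II presentation genes tested rose, H2-Aa by at least 2.59 (its 3 E18.5 arrays lay below the floor) and H2-Eb1 by 2.56. Of 10 activation genes 6 rose and 2 fell, with Apoe at 1.85 and the lipase Lpl at -0.90. Genes with E18.5 arrays below the floor passed the filter only with arrays of other groups. Their rises were in part fixed by that filter, so the counts that hold them are descriptions.

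Before E18.5 the partners moved less evenly. From E14.5 to the E18.5 forebrain Cx3cl1 (1.80), Il34 (0.65) and Tyrobp (0.39) rose, 3 of 6 partners, and 4 of 19 other microglia genes did, beside 30.2% of all genes, Itgb5 by 0.98 and Selplg by 0.45. Sall1, a microglial factor that neural progenitors also express, fell by 0.83, and the complement inhibitor Serping1 fell by 0.70. Border and meningeal markers rose beside them: the border macrophage sum went from 290 to 430 at E14.5 to 397 to 1414 in the E18.5 MC forebrain (3 of 7 tested genes rose), and 6 of 6 meningeal fibroblast genes rose, with a median of 1.84. At E14.5 3 of 9 border macrophage genes (Cd163, Lyve1 and Cbr2) lay under the floor in every array. In adult cortex the border macrophage sum was 1096 to 1231 in MC arrays, inside its range in the E18.5 MC forebrain. The choroid plexus sum went from 241 to 344 at E14.5 to 17940 to 25605 in the E18.5 MC forebrain (6 of 7 tested genes rose). In every E14.5 MC array Kl and Sostdc1 of that list, and Col1a1 and Lum of the meningeal list, lay under the floor. The choroid plexus gene Ttr read 20.8, 7.95 and 45.3 in these arrays. Such genes passed the filter only with arrays of other groups. Their rises were in part fixed by that filter, so the border macrophage, meningeal and choroid plexus counts are descriptions. The part of border, meningeal and choroid plexus cells in the embryonic rise and in the later one was not tested.

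At E18.5 most of the genes stood higher in the hippocampus than in the forebrain samples. Averaged over the MC, VPA and VPM groups (9 arrays against 9), 6 of 8 genes were higher (26.8% of all genes were higher), and all 8 lay above 0, with a median of 0.39 against 0.01 for all genes. This average was added after the values of MC arrays were seen. In MC arrays alone 4 of 9 were higher (9.8% of all genes), in VPA arrays 5 of 9 (11.6%) and in VPM arrays 3 of 8 (13%). With 1 array left out, these counts ran from 2 to 4 in MC, 3 to 4 in VPA and 2 to 3 in VPM arrays. On the values as deposited the average gave 1 call and MC arrays 0. That setting moved the median of all genes by -0.16 in the average and by -0.19 in MC arrays, and 7 of 8 genes stayed above 0 in the average.

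Csf1r read 1223, 1370 and 1406 in the MC hippocampus against 830, 987 and 956 in the MC forebrain. In VPA arrays the values were 1356, 1720 and 1516 against 837, 933 and 1150, and in VPM arrays 1304, 1235 and 1373 against 1025, 823 and 816. No hippocampal array of any treatment overlapped a forebrain array (13.1% of all genes separate in this way). Over the 3 treatments the mean was 1389 ± 153 (SD, n = 9) against 929 ± 114, a difference of 0.58 (interval 0.44 to 0.72, adjusted p = 1.463e-06), and the other probe sets gave 0.55 and 0.39. C1qc separated as well, at 443 ± 50.8 against 314 ± 40.4 (0.50, adjusted p = 1.526e-05). C1qa was at 513 ± 58.1 against 370 ± 45.3 (0.47), Cx3cr1 at 254 ± 25.2 against 185 ± 28.0 (0.47) and C1qb at 408 ± 43.4 against 332 ± 22.5 (0.29), each with some overlap. Tmem119 was at 167 ± 18.4 against 138 ± 30.6 (0.31, adjusted p = 0.04721), a call lost in most alternatives, for example without the VPA forebrain array 1 (0.21, adjusted p = 0.0967). P2ry12 did not pass (181 ± 24.7 against 164 ± 9.75; 0.13, interval -0.03 to 0.29), nor did Cd68 (143 ± 26.2 against 121 ± 16.5; 0.23, adjusted p = 0.0698).

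**Figure D3:**
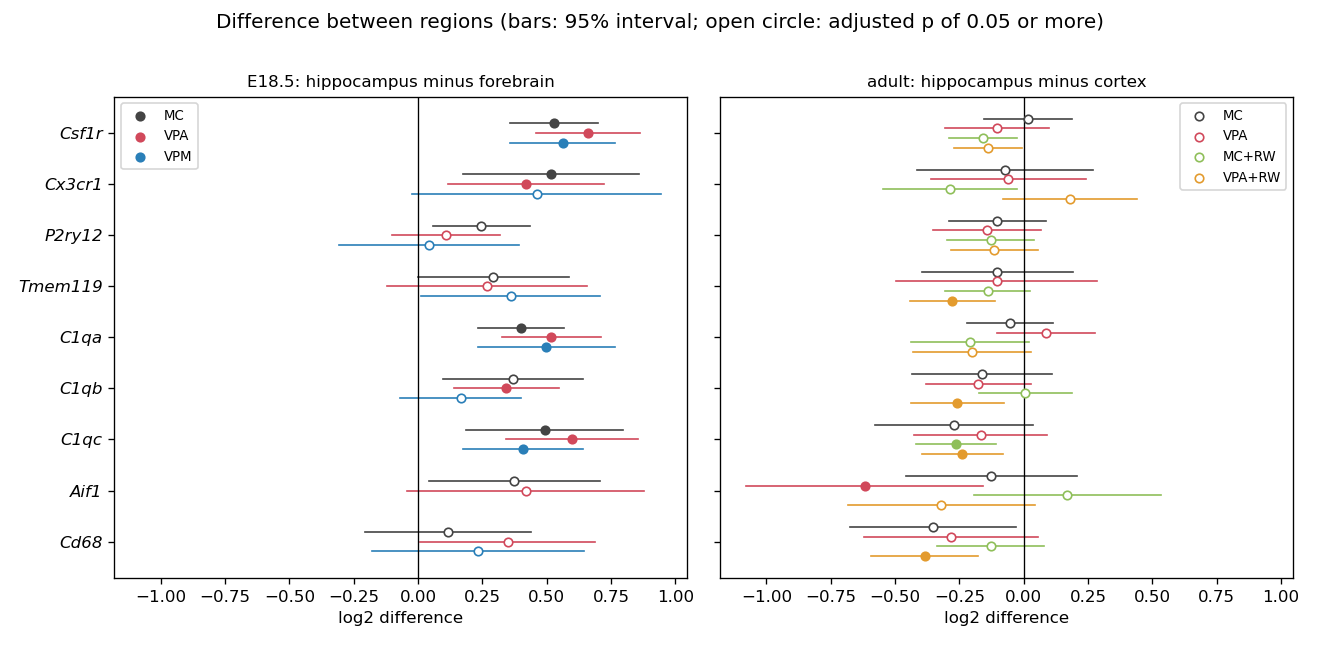
Log2 difference between regions for 9 microglia genes, E18.5 hippocampus minus forebrain on the left by prenatal treatment and adult hippocampus minus cortex on the right by treatment and running; bars are 95% intervals, and open circles mark an adjusted p of 0.05 or more. Csf1r, C1qa and C1qc stand between 0.40 and 0.66 on the left in all 3 treatments, and most points on the right lie at or below 0.

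Markers of border cells moved with this difference. In the same average 26.8% of all genes were higher in the E18.5 hippocampus. Of 9 listed border macrophage genes 5 were tested and all 5 were higher, with a median of 1.57. Among them were the mannose receptor Mrc1 (1.57), Lyve1 (1.76) and F13a1 (1.88). All 6 meningeal fibroblast genes were higher, with a median of 1.85 and Col1a1 at 2.54, and 6 of 7 endothelial genes with a median of 0.32. Hippocampal arrays alone could satisfy the filter, so the border macrophage and meningeal counts are descriptions. Of 14 other microglia genes 6 were higher and 1 was lower, with a median of 0.28: Fcer1g (0.63), Ly86 (0.52) and Ctss (0.32) were higher and Tgfbr1 (-0.34) was lower. Tyrobp (0.39) and Csf1 (0.59) were higher and Cx3cl1 lower (-0.80).

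The border macrophage sum ran from 1213 to 2624 in the hippocampal arrays and from 349 to 1789 in the forebrain arrays, so the ranges overlapped. In the MC hippocampus it was 1213, 2207 and 1725 and in the MC forebrain 397, 1414 and 971. In the forebrain of every treatment, and in the MC and VPA hippocampus, the array with the lowest sum also had the lowest Csf1r, while in the VPM hippocampus it had the highest. The part of border cells in the regional difference was not tested. Choroid plexus genes also varied between E18.5 arrays, from 625 to 29598 in sum, in both regions.

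**Figure D4:**
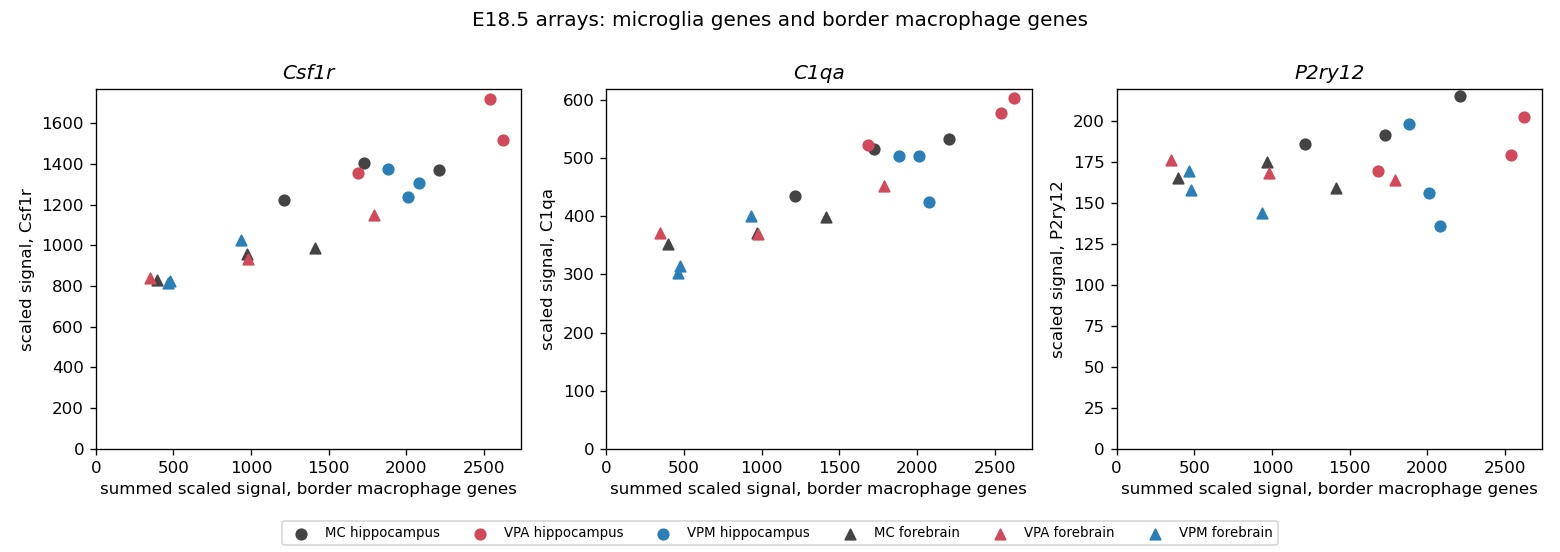
Scaled signal of Csf1r, C1qa and P2ry12 in the 18 E18.5 arrays against the summed scaled signal of border macrophage genes; circles are hippocampus, triangles are forebrain, and colours are prenatal treatments. Csf1r and C1qa tend to be higher where the border sum is higher, and most hippocampal arrays lie to the upper right. MC hippocampus array 1 (sum 1213, Csf1r 1223) goes the other way against VPA forebrain array 3 (sum 1789, Csf1r 1150). P2ry12 stays between 136 and 215.

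In adults the regional difference ran the other way and was small. Averaged over the 4 adult groups (12 arrays against 12, also added after the MC values were seen), 7 of 9 genes were lower in hippocampus than in cortex (21.5% of all genes were lower), and all 9 lay below 0, with a median of -0.15 against 0.00 for all genes. Cd68 was lower in the hippocampus of every group: 252, 250 and 247 against 295, 324 and 340 in MC mice, 257, 236 and 234 against 309, 310 and 267 in VPA mice. With a wheel it read 259, 243 and 259 against 272, 281 and 278 after MC, and 225, 247 and 248 against 318, 319 and 303 after VPA. No hippocampal array reached a cortical one (10.4% of all genes separate in this way), and the difference was -0.29 (adjusted p = 1.678e-05).

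C1qc was at 1118 ± 84.2 against 1317 ± 103 (SD, n = 12; -0.24, adjusted p = 3.355e-05), with overlap. Tmem119 (-0.16), C1qb (-0.15), Csf1r (-0.10), Aif1 (-0.22) and P2ry12 (-0.12, adjusted p = 0.02558) were lower by less. C1qa (-0.09, adjusted p = 0.09703) and Cx3cr1 (-0.06, adjusted p = 0.4636) did not pass. Another C1qb probe set pointed the other way (0.16, adjusted p = 0.06952), and the mean over its probe sets gave -0.04 (adjusted p = 0.443). Aif1 was lost without VPA hippocampus array 2 (adjusted p = 0.0514), VPA+RW hippocampus array 2 (0.0503) or VPA+RW cortex array 1 (0.0524), and P2ry12 without VPA hippocampus array 2 (0.0545) or MC+RW cortex array 2 (0.0562).

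Within single adult groups few genes passed: 0 of 9 in MC mice (16.4% of all genes differed), Aif1 alone in VPA mice (-0.62, adjusted p = 0.04393; 14% of all genes were lower), C1qc alone in MC+RW mice (-0.26, adjusted p = 0.02063; 10.3%) and Cd68, Tmem119, C1qc and C1qb in VPA+RW mice (11.3%). The Aif1 call was lost without VPA hippocampus array 2 (-0.49, adjusted p = 0.168), and the C1qc call without MC+RW cortex array 1 (-0.22, adjusted p = 0.0938). In VPA+RW mice 1 call remained without hippocampus array 1 and 1 without cortex array 1. Beside the averaged difference, 4 of 4 class II genes were lower in hippocampus, H2-Ab1 by 0.90 (log2 -0.90), as were Cx3cl1 (-0.36) and Il34 (-0.37), while Csf1 was higher (0.31). Of 6 border macrophage genes 2 were lower, Pf4 (-0.43) and Stab1 (-0.32), and of 19 other microglia genes 1 was higher and 2 were lower. Meningeal fibroblast genes summed to 3279 to 4983 in adult hippocampus and 2021 to 2803 in cortex, with Dcn (1.72) and Lum (0.68) higher and Col1a2 lower (-0.30) in hippocampus, 3 of 6. Of 7 endothelial genes 3 were lower, Flt1 (-0.20), Tek (-0.18) and Pecam1 (-0.21), and the part of these cells in the result was not tested.

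The change of the regional difference with age was tested in MC arrays. The hippocampal excess was larger at E18.5 than in adults for 3 of 9 genes (7.5% of all genes): Csf1r by 0.51 (adjusted p = 0.004781), C1qa by 0.45 (adjusted p = 0.009922) and C1qc by 0.76 (adjusted p = 0.01686). All 9 genes lay above 0, with a median of 0.50 against 0.01. The compared tissue was forebrain at E18.5 and cortex in adults. On the values as deposited 0 of 9 passed, and C1qc was lost without E18.5 MC forebrain array 1 (0.66, adjusted p = 0.0534).

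None of the tested genes among the 10 passed between prenatal VPA and vehicle at any age, and Trem2 was not tested. At E14.5, where 53.8% of all genes differed between VPA and MC, 0 of 8 microglia genes passed, 0 had an unadjusted p under 0.05 and none separated the groups (60.2% of all genes did). Csf1r read 562, 589 and 482 after VPA against 599, 587 and 532 after MC, a difference of -0.08 (interval -0.29 to 0.13). C1qa read 265, 297 and 235 against 248, 276 and 279 (-0.01, interval -0.27 to 0.24). P2ry12 read 149, 119 and 138 against 158, 173 and 146 (-0.23, interval -0.56 to 0.09), and each of these pairs overlapped. The 8 differences ran from -0.34 (Cd68) to 0.28 (Tmem119), with a median of -0.05, and the widest intervals reached -0.83 and 0.70. With 3 arrays a group, a change within its interval remains possible for each gene.

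**Figure D5:**
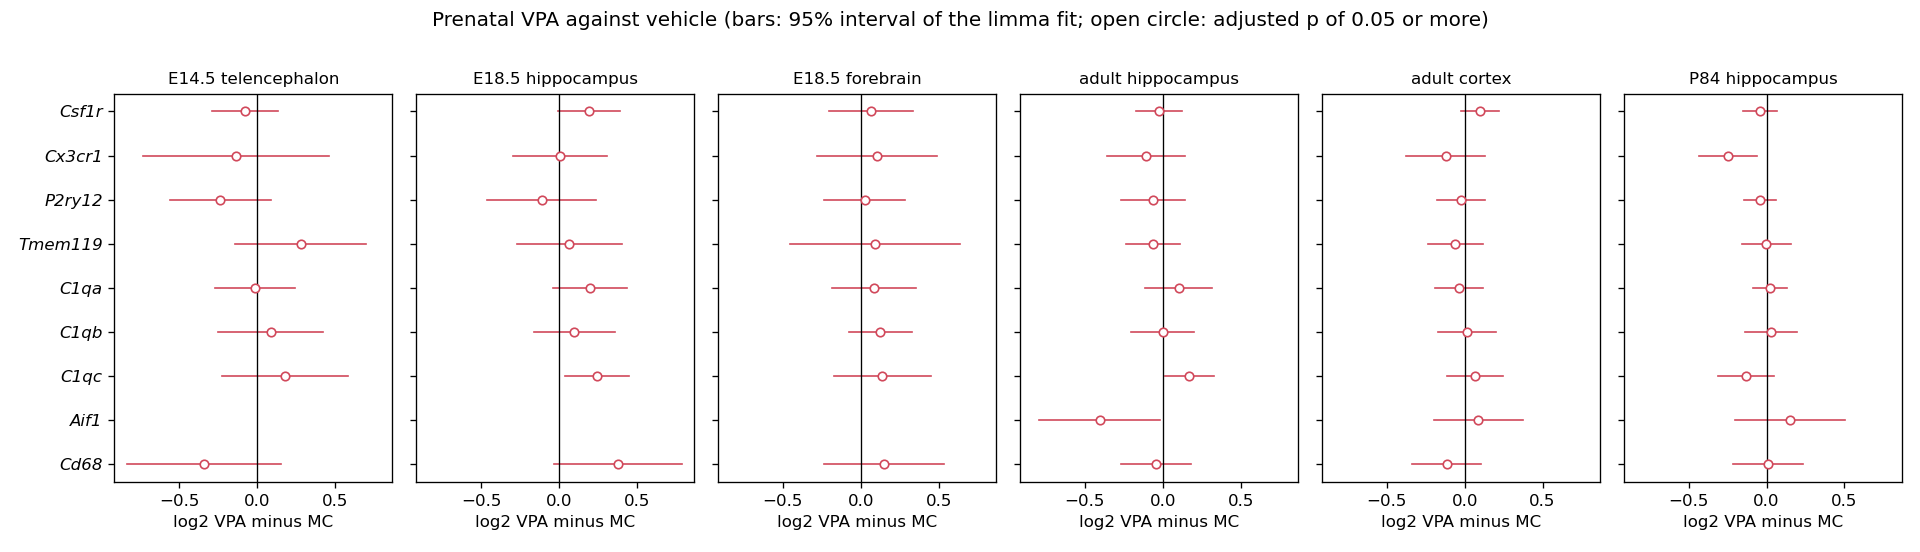
Log2 difference of VPA minus MC for the microglia genes in 6 age and tissue sets; bars are 95% intervals of the limma fit and open circles mark an adjusted p of 0.05 or more. All circles are open, and all lie between -0.41 and 0.38.

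Valpromide at the same dose and time gave 0 calls of 8 against MC (11.6%), with 3 genes at an unadjusted p under 0.05. Csf1r read 695, 756 and 667 after VPM (0.30 above MC, adjusted p = 0.06426), C1qa 345, 305 and 339 (0.30, adjusted p = 0.1263) and Tmem119 135, 141 and 122 (0.49, adjusted p = 0.1271). These 3 and P2ry12 did not overlap MC, 4 of 8 beside 32.8% of all genes. The acid and its amide were then compared directly. Against VPM, VPA was lower for 3 of 8 genes (27% of all genes were lower): Csf1r by 0.38 (log2 -0.38, adjusted p = 0.005575), P2ry12 (-0.46, adjusted p = 0.02025) and C1qa (-0.31, adjusted p = 0.04012). The groups did not overlap for these 3 (60.7% of all genes separate).

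The call for Csf1r held under every alternative run, with an adjusted p of 0.00262 to 0.0367. Its 2 other probe sets gave -0.40 (adjusted p = 0.0332) and 0.13 (adjusted p = 0.4825), and the mean over probe sets gave -0.22. VPM array 3 stood apart, with a choroid plexus sum of 20384 against 307 and 495 in the other VPM arrays. Without it 1 call remained: that of Csf1r, with P2ry12 at -0.38 (adjusted p = 0.0823) and C1qa at -0.29 (adjusted p = 0.101). P2ry12 was also lost without VPA array 2 (adjusted p = 0.072) and on the values as deposited (0.0956). C1qa was lost without VPA array 1 (adjusted p = 0.0768), VPA array 3 (0.155) or VPM array 1 (0.114), on the values as deposited (0.173), with no filter (0.0623), with the replicate number as a block (0.0595) and in a fit on only the groups compared (0.0537). Red cell genes summed to 6592 to 9994 in VPA, 2576 to 3218 in VPM and 10962 to 12920 in MC arrays. Of 7 endothelial genes 4 were lower after VPA than after VPM, Esam (-0.93), Cldn5 (-0.80), Kdr (-0.58) and Tek (-0.46), and their sum was 1666 to 1818 against 2440 to 2863. Also lower were the meningeal gene Col3a1 (-0.64), 1 of 3 tested, and the astrocyte genes Aldh1l1 (-0.43) and Gja1 (-0.38), 2 of 3. The part of these cells in the result was not tested.

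Around these genes, members of the pathway lists also differed between VPA and MC at E14.5, where 53.8% of all genes did. Sall1 was at 324 after VPA against 703 after MC (-1.11), and VPM gave -0.72. Serping1, the C1 inhibitor gene, was lower by 1.32 (log2 -1.32, adjusted p = 3.02e-06), 1 of 2 complement genes tested. Of 11 other microglia genes, Itgb5 (0.34) and Tgfbr1 (0.29) were higher and Slco2b1 lower (-2.03), and 0 of 3 partners changed. Slco2b1 was at 33.6 ± 4.44 after VPA, with 1 array below the floor, against 153 ± 76.6 after MC. None of its VPA arrays met the filter, so its difference is a description and its size rests in part on the floor. Of 5 activation genes 1 was lower, Lpl (-0.43, adjusted p = 0.009527). H2-Ab1 lay under the floor in MC arrays and at 318 ± 96.3 after VPA (n = 3). It passed the filter only through its VPA arrays, so that difference is a description. Between the drugs Apoe (-0.67) and the growth factor Igf1 (-1.06) were lower after VPA than after VPM. Igf1 was at 64.4 ± 1.84 after VPA, 70.9 ± 22.3 after MC and 135 ± 19.7 after VPM. It passed the filter only through its VPM arrays, so that difference is a description too.

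By E18.5 the drug comparisons gave no call. In the hippocampus 0 of 8 genes differed between VPA and MC (0% of all genes; 1506 had an unadjusted p under 0.05), with C1qc lowest in adjusted p (483, 505 and 514 against 401, 396 and 475; 0.24, adjusted p = 0.3129) and Cd68 at 0.38. For these 8 genes VPM against MC gave 0 (0.00867%) and VPA against VPM 0 (0%), with C1qc again nearest (0.31, adjusted p = 0.1792). In the forebrain all 8 differences between VPA and MC lay from 0.03 to 0.15 and 0 passed (2.16%), VPM against MC gave 0 (0%) and VPA against VPM 0 (0.53%). The choroid plexus sum there was 625 to 4965 in VPA arrays against 17940 to 25605 in MC arrays. Widest intervals in these 6 comparisons reached -0.64 and 0.79, and the difference of the VPA effect between the regions was called for 0 of 8 genes (0%). Apoe (0.37) and Lpl (0.57) were higher in the VPA forebrain.

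Adult mice showed no call for drug or running either. After prenatal VPA 0 of 9 genes differed in the hippocampus (0%), 0 of 9 in cortex (0.00735%) and 0 of 9 in the P84 hippocampus (0%). Aif1 read 173, 138 and 187 in the VPA hippocampus against 199, 236 and 221 after MC, without overlap (-0.41, adjusted p = 0.4354; the arrays separate for 16.9% of all genes). In the P84 set it read 287, 168, 194 and 210 against 175, 211, 192 and 182, with overlap and the opposite sign (0.15). The VPA effect on Aif1 differed by 0.55 between the adult sets (adjusted p = 0.5593) and by -0.49 between hippocampus and cortex (adjusted p = 0.6729), and 0 of 9 genes passed in both tests (0% each). Cx3cr1 at P84 read 672, 565, 623 and 566 against 758, 629, 777 and 718 (-0.25, interval -0.43 to -0.06, adjusted p = 0.9019).

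A running wheel was followed by 0 calls of 9 in the MC hippocampus (0%), the VPA hippocampus (0%), the MC cortex (0.0147%) and the VPA cortex (0%). Csf1r in MC cortex read 4400, 4607 and 4159 with the wheel against 3900, 3772 and 4241 without (0.14, adjusted p = 0.3036), with overlap. Between VPA+RW and MC+RW mice 0 of 9 differed in hippocampus (0%) and in cortex (0.022%). Cx3cr1 in cortex was nearest, at 457, 641 and 576 against 737, 784 and 645 (-0.38, interval -0.63 to -0.13, adjusted p = 0.3431), with no overlap (15.3% of all genes separate). The interaction of VPA and running gave 0 of 9 in both tissues (0% each). No pathway list held a called gene in any adult drug or running comparison.

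As a description, the 9 measurable genes rose and fell together over the 19 group means, with Pearson correlations of 0.931 to 0.995 over 36 pairs. These points share the step from embryo to adult. Within groups, over the deviations of 59 arrays, the same pairs ran from -0.174 to 0.586 with a median of 0.157. Cd68 (0.58), Csf1r (0.54) and C1qc (0.54) followed the mean of the other genes most, and P2ry12 (0.03) and Cx3cr1 (-0.07) did not. Among 12047 other genes, Sipa1l1 (0.997), Ephx2, Trabd2b, Adamtsl4, Asah2, Tyrobp (0.994), Inka2, Tmbim1, Il34 (0.994) and Efemp1 were most like the mean of the members over the 19 group means. Over the deviations of 59 arrays the 10 most alike were Col6a2 (0.72), Col5a1 (0.65), Pf4 (0.65), Fcgrt, Sult1a1, Serpinf1, Itih5, Olfml3, Serf2 and F13a1 (0.61). Pf4 and F13a1 are in the list of border macrophage genes, and Olfml3 is in that of other microglia genes.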

How the data were processed

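Total RNA was measured on 59 arrays in 19 groups. Per the labels and the values, the authors deposited 1 linear signal intensity for every probe set. GCOS is named in the submitters' processing notes; the sources used here do not give its version, signal algorithm or target. No column was without a sample (0). Of 45101 probe sets 34958 carried 1 symbol in the platform annotation, 932 several and 9211 none; by Entrez number 34754 matched the mouse genes of RefSeq. Scaling brought the 2% trimmed mean of an array to 500, a floor of 32 was set (reached by 18.2% to 38% of probe sets), and log2 followed. The probe set with the highest mean signal stood for a gene. A gene was tested at a signal of at least 100 in as many arrays as the smallest group.

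Comparisons used limma 3.58.1 under R 4.3.3 and the data.table package, version 1.17.8: 1 term per group, an intensity trend, Benjamini-Hochberg adjustment over all genes tested, a threshold of 0.05 and 95% intervals. Drug and running fits held all arrays of an age and tissue; age and region fits held all arrays of a treatment (all running arrays together), and those that cross sets held all arrays concerned. There were 44 comparisons, 14 of them added after MC values had been inspected. Simulated data tested the scripts. Figures used Python 3.11.15, pandas 2.3.3, numpy 2.4.6 and matplotlib 3.10.9. The number of arrays limits the precision.

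The members and gene lists were chosen with earlier results of these data known. Named were all members, up to 4 called genes per list with the smallest adjusted p, and the 10 genes most correlated with the members; other genes were chosen after their values were seen. Replicate numbers did not pair the arrays: in 0 of 47 group pairs did all same-numbered arrays correlate over 0.1 (range -0.248 to 0.296). The alternatives were quantile normalization, values as deposited, log2(signal + 32), no filter, a filter at 200, no trend, a block for the replicate number, the mean over probe sets, a fit on only the groups compared, and each array left out.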

Additional observations from a re-analysis of the deposited data

Results flagged for a closer look

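Csf1r, C1qa and C1qc stood out because their regional difference (hippocampus minus the other region) in MC arrays differed between E18.5 and the adult, by 0.51, 0.45 and 0.76 on the log2 scale. At E18.5 the 3 genes were higher in the hippocampus, by 0.53, 0.40 and 0.49, and in adults they were at 0.02, -0.05 and -0.27. Border macrophage and meningeal genes were higher in the E18.5 hippocampus as well, and their part was not tested.

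Tmem119 in the P84 hippocampus of MC mice had 1 array apart from the others, at 628 beside 674, 680 and 682. The gap was 0.854 of the range, above Dixon's 95% critical value for 4 arrays. Of 32 such checks 1 was passed, where chance alone passes about 1 in 20.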

How the results depend on the processing

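Of 1839 repeats of the 108 called differences of single genes, 1715 kept direction and call, 124 kept direction and lost the call, and 0 reversed; the cause was not tested. Among repeats that kept all arrays, 372 counts of called genes stayed within 1.5 times and 19 did not. The 372 include counts of 0 that stayed at 0, and many comparisons had 0 calls in the main setting. On the values as deposited, the E18.5 hippocampus against forebrain gave 0 in MC (4 in the main setting), 1 in VPA (5), 0 in VPM (3) and 1 in the average (6), the change of that difference with age 0 (3), E14.5 VPA against VPM 1 (3), and adult hippocampus against cortex 0 in VPA (1) and 0 in MC+RW (1). Averaging probe sets gave 7 for the MC E18.5 regions, 5 for the change with age and 2 for MC+RW. Quantile normalization gave 1 for the adult MC regions (0) and 2 for MC+RW; fitting only the groups compared gave 1 for adult MC regions and 2 for VPA+RW (4), as did no intensity trend (2); no filter gave 0 for adult VPA regions. With the replicate number as a block, E14.5 VPM against MC gave 1 (0) and adult VPA regions 0 (1). The block moved no other count by over 1.5 times.

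With each array left out in turn, counts ran from 1 to 3 for E14.5 VPA against VPM, 5 to 6 and 6 to 8 for the step from E14.5 to E18.5 in MC and VPA, 2 to 4, 3 to 4, 2 to 3 and 5 to 7 for the E18.5 regions in MC, VPA, VPM and the average, 0 to 1, 0 to 2, 1 to 4 and 5 to 7 for the adult regions in VPA, MC+RW, VPA+RW and the average, and 2 to 5 for the change with age. Quantile normalization moved the median of all genes by -0.19 and -0.22 in the steps to adult MC hippocampus and cortex, and the deposited values by 0.37 and 0.22; all 9 genes stayed above 0 in each. Trem2, and Aif1 in the embryo, lay too near the floor to be measured.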
